A study of Mus musculus with 8 samples.

Results

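The genes described here are 9 regulators of the mTOR kinase and of translation, Ddit4, Ddit4l, Sesn1, Sesn2, Sesn3, Eif4ebp1, Deptor, Rptor and Mtor, out of 21938 protein-coding genes of mouse build GRCm38 (mm10). They were chosen by name, and all 9 were found in the annotation. A peak was counted for a gene when it lay in the gene body or within 50 kb of any of its transcription start sites (TSS). The regions of the 9 genes held 55 of the 23188 peaks of the glucocorticoid receptor (GR) on the nuclear chromosomes. Chromatin came from nuclei of skeletal muscle of wild-type (WT) C57/Bl6J mice, aged 10 to 12 weeks, for which the labels state no treatment and no muscle by name. Chromatin immunoprecipitation with sequencing was done with 6 antibodies, against GR, RNA polymerase II (Pol2), H3K4me3, H3K27ac, H3K4me1 and CTCF, with 1 library each beside 2 inputs. Input1 went with GR, Pol2, H3K27ac and H3K4me1, and Input2 with the other pair, by the labels. Replicates and a second condition were absent, so the values below are counts and positions in single libraries and no test between groups was possible.

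The mTOR kinase drives protein synthesis and growth when nutrients, energy and growth factors are available. In mTOR complex 1 the scaffold Raptor, encoded by Rptor, presents substrates to the kinase, among them the translation repressor encoded by Eif4ebp1, which releases the cap-binding factor eIF4E once phosphorylated. Ddit4 (also called Redd1) and Ddit4l restrain the complex through the tuberous sclerosis complex, the sestrins restrain it through the GATOR proteins and AMPK, and Deptor binds the kinase itself. GR is a hormone-activated transcription factor, and glucocorticoids lower protein synthesis in skeletal muscle. Ddit4 is a known glucocorticoid-induced gene there.

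GR binds DNA as a dimer at the glucocorticoid response element (GRE), searched here on both strands as GNACA and TGTNC with any 3 bases between them. Matches lay in 7 of the GR peaks in the regions. Those in the 6 peaks that met no annotated UTR are shown because all lay away from H3K4me3-marked promoters. Each window is 151 bases of the plus strand of GRCm38 as given in RefSeq, with the match in capitals. The windows lay at chr10:59974205-59974355 and chr10:59979286-59979436 upstream of Ddit4, at chr15:55132416-55132566 in an intron of Deptor, and at chr4:148507607-148507757, chr4:148510530-148510680 and chr4:148512992-148513142 in introns of Mtor.
Ddit4, peak 22.3 kb upstream: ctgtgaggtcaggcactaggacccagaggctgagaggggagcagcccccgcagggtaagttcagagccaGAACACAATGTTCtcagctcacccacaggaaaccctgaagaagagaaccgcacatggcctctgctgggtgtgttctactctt
Ddit4, peak 27.3 kb upstream: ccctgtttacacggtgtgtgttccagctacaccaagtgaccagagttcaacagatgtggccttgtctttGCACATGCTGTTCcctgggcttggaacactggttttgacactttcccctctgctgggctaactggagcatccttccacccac
Deptor, intronic peak: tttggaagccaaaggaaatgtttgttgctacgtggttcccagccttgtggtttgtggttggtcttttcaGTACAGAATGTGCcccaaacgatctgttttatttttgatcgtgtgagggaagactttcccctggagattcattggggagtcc
Mtor, intronic peak of 253 bases: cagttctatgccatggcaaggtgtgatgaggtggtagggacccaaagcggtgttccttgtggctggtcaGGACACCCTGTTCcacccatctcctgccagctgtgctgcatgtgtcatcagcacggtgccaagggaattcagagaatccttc
Mtor, intronic peak of 235 bases: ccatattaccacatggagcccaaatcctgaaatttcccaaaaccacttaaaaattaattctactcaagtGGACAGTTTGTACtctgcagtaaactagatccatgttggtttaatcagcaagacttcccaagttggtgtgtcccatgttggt
Mtor, intronic peak of 232 bases: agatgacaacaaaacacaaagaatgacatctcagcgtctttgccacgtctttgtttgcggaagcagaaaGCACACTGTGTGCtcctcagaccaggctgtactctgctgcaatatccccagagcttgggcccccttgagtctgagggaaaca
Between the arms of the element the 3 spacer bases differed from match to match.

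A composite element bound by C/EBP and ATF proteins, among them the stress factor ATF4, was searched as TGATGNAA on both strands. The matches in Sesn1 and Eif4ebp1 are shown for their place, an intronic peak and the promoter, in 151-base windows of the plus strand at chr10:41893827-41893977 and chr8:27261207-27261357, with the element in capitals.
Sesn1, intronic peak: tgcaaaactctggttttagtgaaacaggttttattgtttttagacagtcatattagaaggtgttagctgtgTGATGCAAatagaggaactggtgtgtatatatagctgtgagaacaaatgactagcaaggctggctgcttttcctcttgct
Eif4ebp1, first intron: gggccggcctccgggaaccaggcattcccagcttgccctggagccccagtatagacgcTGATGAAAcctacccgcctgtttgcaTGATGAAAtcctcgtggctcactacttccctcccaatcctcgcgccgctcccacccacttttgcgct
The Eif4ebp1 window held 2 copies of the same 8 letters, and the Sesn1 window held 1 match, with another base at the free position.

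Peak widths had a median of 212 bases for GR and for Pol2, 964 for H3K4me3, 341 for H3K27ac and 229 for CTCF. The 8 muscle marker genes, among them Acta1 and Ckm, all had Pol2 at a TSS, with a median of 72.2% of the gene body under Pol2 peaks. Of 27 markers of other cell types, 7 had Pol2 at a TSS, and 4 had GR, Pol2, H3K4me3 and H3K27ac there, among them the fibroblast markers Pdgfra, Dcn and Col1a1. Ptprc, Alb and Adipoq had none of these at a TSS. The peaks come from whole muscle, so a site used in few nuclei and a weak site in all nuclei cannot be told apart.

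All 9 genes had a GR peak in their region, against 68.3% of all protein-coding genes, and the counts ran from 1 at Sesn3 to 12 at Ddit4 and Mtor. Pol2 (66.4% of all genes), H3K4me3 (77.5%), H3K27ac (72.1%) and H3K4me1 (81.6%) peaks were also present in all 9 regions, and CTCF in 7 (44.4%). At least 5 GR peaks were in the regions of 6 of the 9 genes (21.6% of all genes), at least 7 in 4 (11.5%) and 12 in 2 (2.27%). The median was 5 GR peaks per gene against 2 over all genes. Regions differ in length, and per 100 kb of region the median was 3.55 against 1.36. Both medians over all genes include genes without any peak. Among the 10265 genes with H3K4me3 and Pol2 at a TSS the medians were 3 peaks and 2.72 per 100 kb, which lies nearer to the 9 genes.

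**Figure D1:**
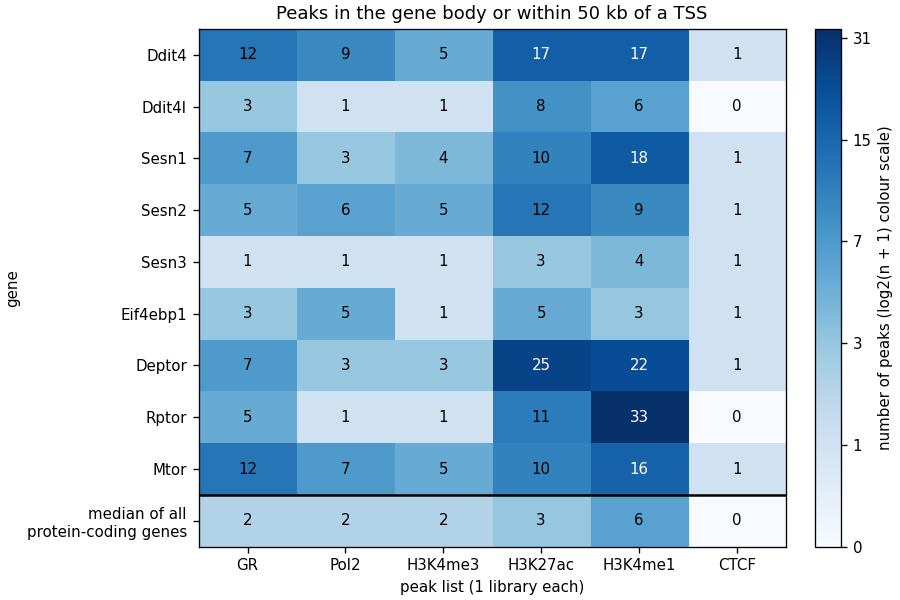
Number of peaks in the gene body or within 50 kb of a TSS (cells, 1 library per column) for the 9 genes (vertical axis) and the 6 peak lists (horizontal axis). Ddit4 and Mtor have 12 GR peaks each, Sesn3 has 1, Deptor has 25 H3K27ac peaks and Rptor has 33 H3K4me1 peaks.

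Within 1 kb of a TSS, all 9 genes had peaks of GR (43.4% of all genes), Pol2 (47.1%), H3K4me3 (61.5%), H3K27ac (52.4%) and H3K4me1 (65.8%). CTCF lay there at Sesn3 and Deptor alone (7.54%). The authors' fold over the control for these CTCF peaks was 6.53 and 5.04, which 73.6% and 96.2% of all CTCF peaks reached. GR, Pol2, H3K4me3 and H3K27ac were all present at a TSS of the 9 genes, as at 40.0% of all genes. Of the 10265 genes with H3K4me3 and Pol2 at a TSS, 86% had GR there too, so that GR at the promoters of the 9 genes was what most genes with a marked promoter showed. Counted at the 5′ end of each gene alone, GR and Pol2 were present at 7 of 9, since at Ddit4l and Sesn3 they lay at a TSS further into the gene.

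The authors' fold enrichment over the control was given for H3K4me3 and CTCF peaks alone. For the strongest H3K4me3 peak at a TSS of each gene it was between 25.9 and 56.8. Over the 13486 genes with H3K4me3 at a TSS its median was 33.5. Sesn1 had the highest value, 56.8, which 6.55% of those genes reached, and Ddit4l the lowest. Mtor stood at 49.3, Sesn2 at 44.7, Rptor at 43.6, Eif4ebp1 at 42.5, Deptor at 40.2 and Sesn3 at 38.4. Ddit4 lay at the median, with a fold of 33.5, while its H3K4me3 peak of 2500 bases was wider than most, since 5.75% of those genes had as wide a peak.

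The 55 GR peaks were put in classes by the histone marks they overlapped by at least 1 base. Promoter-class peaks, which overlapped H3K4me3, numbered 27, or 49.1% (exact binomial 95% interval 35.4 to 62.9), against 53.2% of all GR peaks. Enhancer-class peaks, with H3K4me1 and H3K27ac but no H3K4me3, numbered 11, or 20% (10.4 to 33), against 19.3%. Peaks with H3K4me1 only numbered 15, or 27.3% (16.1 to 41), against 19.9%. No peak had H3K27ac alone (0 of 55, which allows up to 6.49%), against 0.811%, and 2 peaks, both in Mtor, had none of the 3 marks, 3.64% against 6.78%. Each interval held the share over all GR peaks, and Pol2 overlapped 28 of the 55 (50.9%) against 51.3% of all. The intervals cover counting error only and treat neighbouring peaks as independent.

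**Figure D2:**
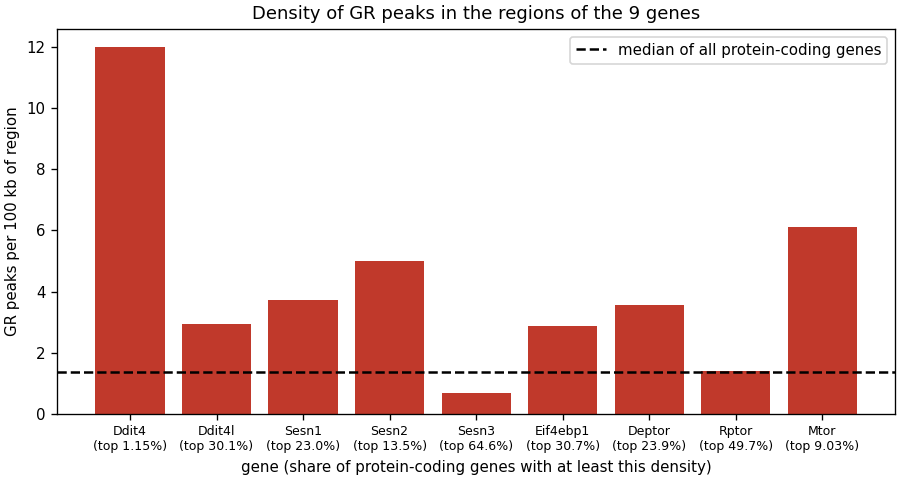
GR peaks per 100 kb of region (vertical axis) for each of the 9 genes (horizontal axis), with the share of protein-coding genes at least as dense below each name and a line for the median of all genes. Ddit4 is highest with 12 per 100 kb, a density that 1.15% of genes reach, and Sesn3 is lowest with 0.682.

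Ddit4 (ENSMUSG00000020108, chr10:59949669-59951834, minus strand), the stress-induced inhibitor of mTOR complex 1, had the densest GR occupancy of the 9 genes. It had 12 GR peaks in its region of 100 kb, a count that 2.27% of all genes reached and a density that 1.15% reached. Of these, 8 lay nearer to the TSS of Ddit4 than to any other protein-coding TSS. The other 4 were nearer to Anapc16, a subunit of the anaphase-promoting complex, at distances between 391 and 17634 bases. The peaks fell into 6 of the promoter class, 4 of the enhancer class and 2 with H3K4me1 only.

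The body of Ddit4, 2166 bases long, was covered by Pol2 peaks to 100%, as in 0.0501% of all genes. The median over all genes was 0. A single Pol2 peak of 3687 bases ran from the TSS to past the end of the gene. H3K27ac covered 77.7% of the body, as much as in 0.488% of genes. The gene is short, and a peak of a given width covers more of a short gene than of a long one.

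The GR peak over the Ddit4 TSS, chr10:59951506-59952851, was 1346 bases wide, and 0.069% of all GR peaks were as wide. A second GR peak of 661 bases began 428 bases into the gene, and further peaks of 283 and 533 bases lay 1.76 and 2.2 kb from the TSS, towards and past the 3′ end. Pol2 and H3K4me3 overlapped all 4. For the peaks of 283 and 533 bases, however, the H3K4me3 peak was not the one at the promoter. It was a separate peak of 265 bases with an authors' fold of 4.11, which 96.8% of the H3K4me3 peaks reached. Upstream of the promoter a 128-base peak at 1.97 kb had H3K4me1 only and a 355-base peak at 5.75 kb had H3K4me1 and H3K27ac.

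Further upstream of Ddit4, an H3K4me1 domain of 14395 bases (chr10:59969475-59983869) held 4 GR peaks. The nearest to Ddit4, chr10:59969760-59970782, lay 17.9 kb from the TSS and was 1023 bases wide, a width that 0.233% of GR peaks reached. It overlapped a Pol2 peak of 1030 bases, an H3K27ac peak of 1758 bases and an H3K4me3 peak of 497 bases with an authors' fold of 13. Neither GENCODE nor RefSeq gives a gene under this GR peak. The next, of 150 bases, had H3K4me1 only. The peaks of 856 bases at 22.3 kb and of 429 bases at 27.3 kb had H3K4me1, H3K27ac and Pol2, and each held a full GRE, in the windows printed above.

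Outside this domain, the Ddit4 region had 2 more distal GR peaks. A 416-base peak 45.7 kb upstream, inside Anapc16, was of the enhancer class and overlapped the region's CTCF peak. On the other side, a 770-base peak lay 30.1 kb downstream of the TSS with Pol2, H3K27ac and H3K4me3 (authors' fold 12.5), inside Gm40673, a long non-coding RNA gene of RefSeq. It held 1 GRE core (ACANNNTGT), 1 copy of the C/EBP-ATF element and 1 of the FoxO element GTAAACA. The GRE core was also in the 416-base peak and in the peak over the Ddit4 TSS. Of the 17 H3K27ac peaks in the region, 12 overlapped no H3K4me3, and 6 of these overlapped GR, against 20.1% of all H3K27ac peaks without H3K4me3. Those 6 met only the 4 enhancer-class GR peaks of the region. The GR peaks of 856 and 429 bases each overlapped more than 1 H3K27ac peak.

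**Figure D3:**
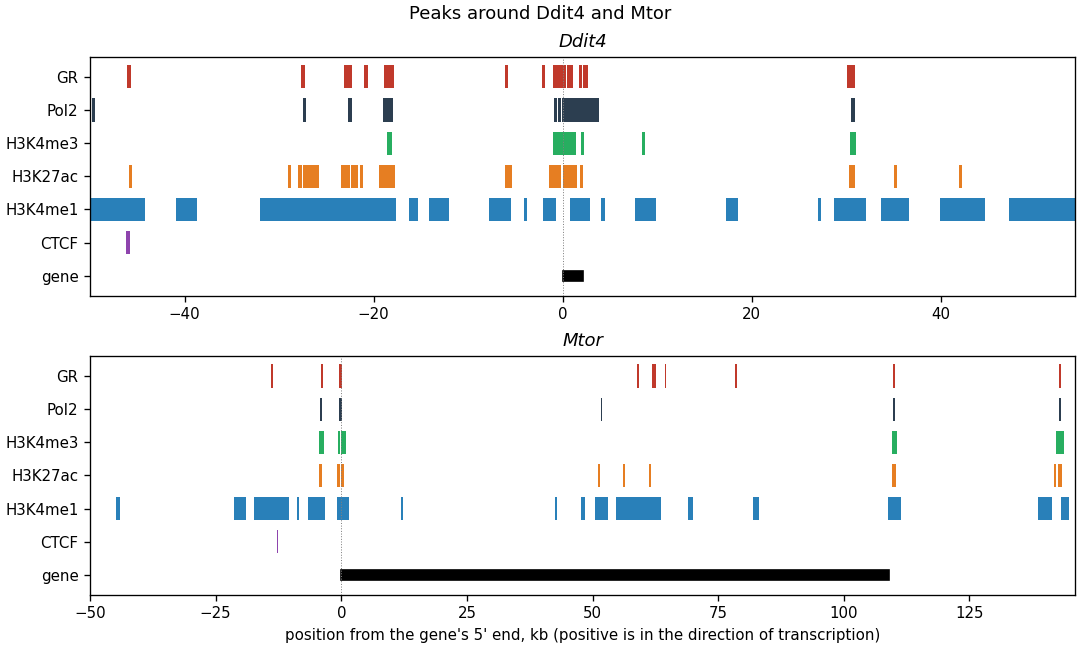
Peaks of the 6 lists (rows) around Ddit4 and Mtor against distance from the 5′ end of the gene in kb, with positive values in the direction of transcription and the gene as a black bar. Narrow peaks are drawn at a minimum width so that they can be seen. Ddit4 has GR peaks at its promoter and 17.9, 22.3 and 27.3 kb upstream that overlap Pol2, while the intronic GR peaks of Mtor overlap neither Pol2 nor H3K27ac.

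Ddit4l (ENSMUSG00000046818, chr3:137621612-137628333, plus strand), the paralog of Ddit4 that is known to be expressed in skeletal muscle, had 3 GR peaks in its region. This was 2.93 per 100 kb, reached by 30.1% of genes. A 276-base GR peak spanned the TSS at position 137623672, with its middle 2.06 kb into the gene, together with the region's only Pol2 peak, of 380 bases, and its only H3K4me3 peak, of 2261 bases. At the 5′ end itself, GR, Pol2 and H3K4me3 peaks were absent within 1 kb. H3K27ac covered 47.6% of the gene body, as in 1.47% of genes, and Pol2 covered 5.65%.

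The other GR peaks of Ddit4l, of 147 and 205 bases, lay 17.3 and 18.8 kb downstream of its nearest TSS. Both had H3K4me1 only, inside a domain of 6604 bases. That domain also held 3 H3K27ac peaks, and none of them shared a base with a GR peak, although the widest, of 383 bases, ended just before the 205-base peak. The region had no CTCF peak and no other GR site, and neither of these peaks held a GRE core (ACANNNTGT).

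Sesn1 (ENSMUSG00000038332, chr10:41809935-41908424, plus strand) is a p53 target of the sestrin family. It had 7 GR peaks, 3.71 per 100 kb (23% of genes as dense), and all 7 had Sesn1 as their nearest gene, at the 5′ promoter together with Cep57l1. H3K4me3, Pol2 and GR met at 2 promoters. The 5′ promoter, shared with Cep57l1 on the other strand, had a GR peak of 863 bases, a Pol2 peak of 786 bases and H3K4me3 with a fold of 56.8. The internal promoter at position 41887439 had a GR peak of 454 bases, Pol2 peaks of 100 and 238 bases and H3K4me3 with a fold of 34. The TSS at position 41898373 had no peak of any list within 1 kb.

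Within introns of Sesn1, 4 GR peaks lay away from both promoters. The widest, 673 bases at chr10:41893640-41894312, was 4.06 kb from the internal TSS and of the enhancer class. It held a GRE core, a FoxO element and the C/EBP-ATF element printed above. A 127-base peak 9.43 kb into the gene was also of the enhancer class, and the peaks of 156 and 197 bases had H3K4me1 only. The last GR peak, of 184 bases with H3K4me1 only, lay past the gene inside Armc2. The region's CTCF peak was intronic, 21 kb from the 5′ end, and did not overlap GR.

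Sesn2 (ENSMUSG00000028893, chr4:132492032-132510501, minus strand), the leucine-binding sestrin, had 5 GR peaks in its region, all of the promoter class. Only 2 of them had Sesn2 as their nearest gene. The others lay at the promoters of Med18, a Mediator subunit, Atpif1, an inhibitor of the ATP synthase, and Dnajc8, a co-chaperone. The peak over the Sesn2 TSS was 235 bases wide with Pol2, H3K27ac and H3K4me1. The remaining peak, of 131 bases, lay 4.39 kb upstream, where no TSS of a protein-coding gene is annotated, on an H3K4me3 peak of 1018 bases with a fold of 18.8. It overlapped a CTCF peak and an H3K27ac peak, and a Pol2 peak of 248 bases lay on the same H3K4me3 peak.

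Sesn3 (ENSMUSG00000032009, chr9:14275067-14333101, plus strand), the FoxO-regulated sestrin, had the fewest GR and H3K27ac peaks of the 9 genes. Its region of 147 kb held 1 GR peak, 1 Pol2 peak, 1 H3K4me3 peak, 1 CTCF peak, 3 H3K27ac peaks and 4 H3K4me1 peaks. The GR peak, of 312 bases, spanned the TSS at position 14276301 and overlapped Pol2, H3K4me3, H3K27ac and CTCF. Its density of 0.682 per 100 kb was reached by 64.6% of genes. No H3K27ac peak lay outside the H3K4me3 peak, so by these lists the region had no distal acetylated site.

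Side by side, the sestrins had 7, 5 and 1 GR peaks for Sesn1, Sesn2 and Sesn3. Peaks of the enhancer class were present at Sesn1 alone (2), and H3K4me1 peaks numbered 18, 9 and 4. The highest H3K4me3 folds at a TSS were 56.8, 44.7 and 38.4. Per 100 kb, however, the Sesn2 region came first with 5 GR peaks against 3.71 and 0.682. It also had the most H3K27ac peaks (12 against 10 and 3) and Pol2 peaks (6 against 3 and 1). These counts for Sesn2 include peaks at the promoters of Med18, Atpif1 and Dnajc8. With only the GR peaks nearest to a TSS of the gene kept, the numbers were 7, 2 and 1. None of the sestrin peaks held a full GRE.

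**Figure D4:**
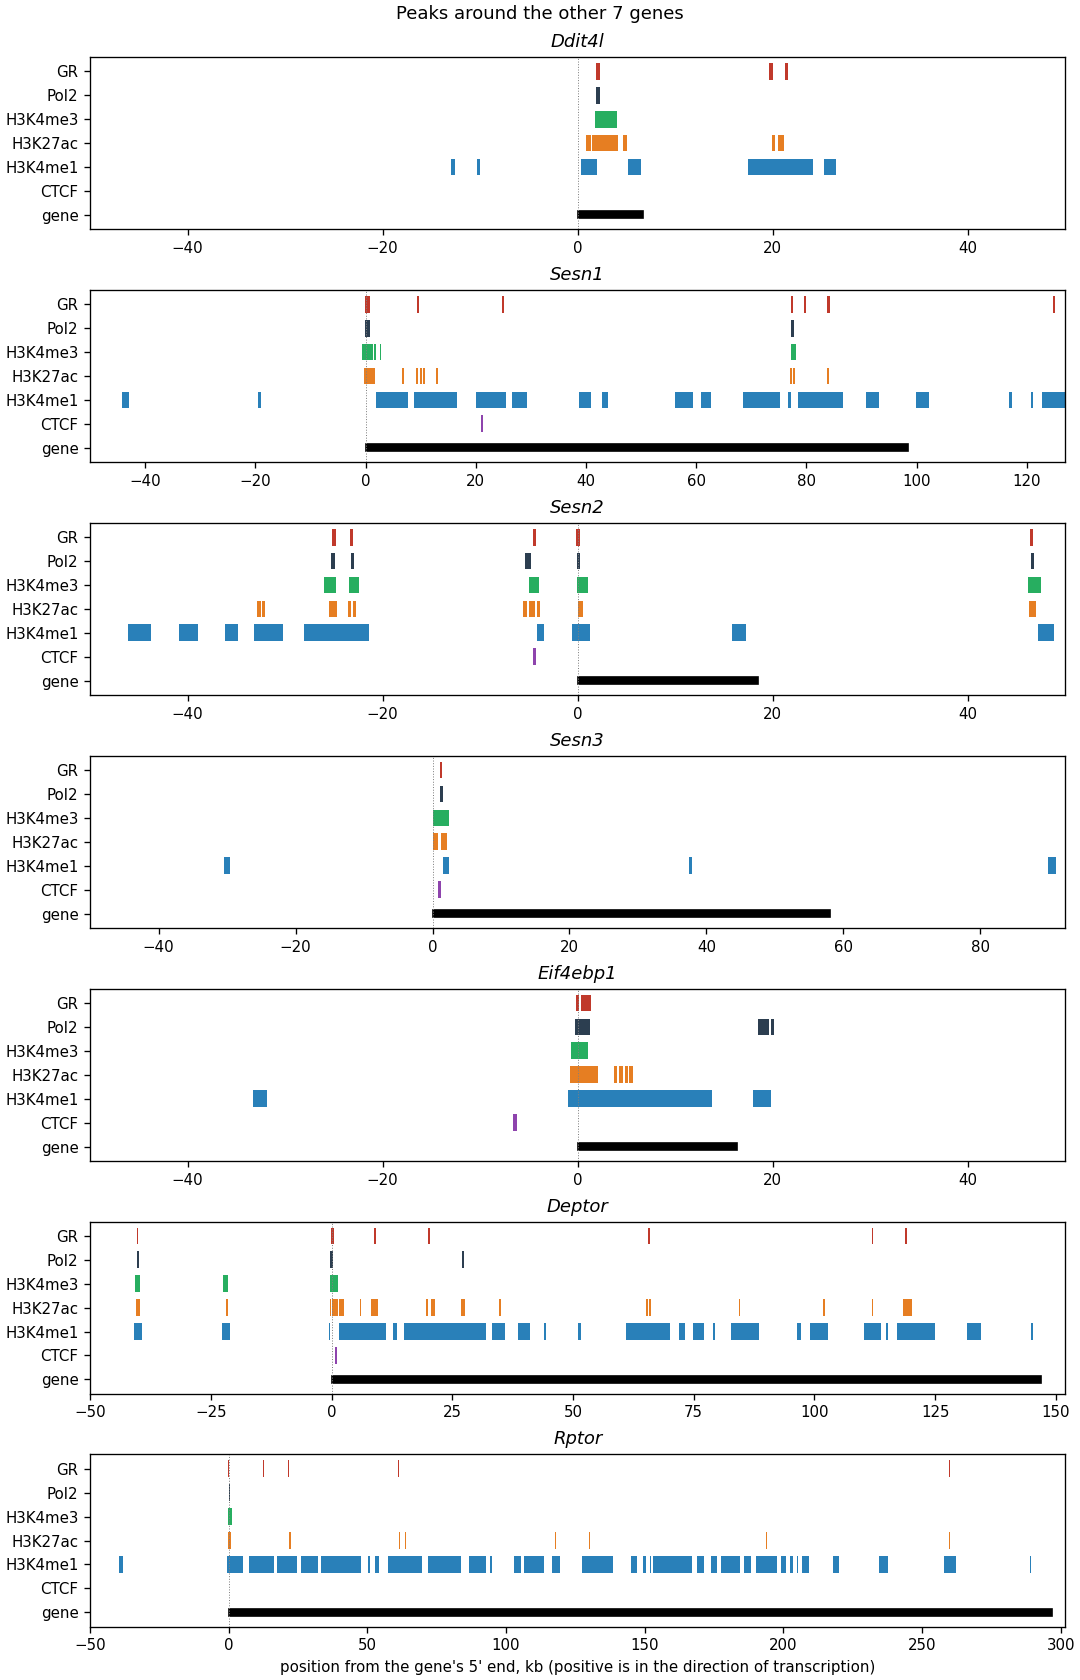
Peaks of the 6 lists (rows) around the other 7 genes against distance from the 5′ end of the gene in kb, with the gene as a black bar and narrow peaks drawn at a minimum width. Eif4ebp1 has its 3 GR peaks at the 5′ end, Deptor has 20 H3K27ac peaks in the gene body outside H3K4me3, and Rptor has 33 H3K4me1 peaks.

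Deptor (ENSMUSG00000022419, chr15:55112317-55259271, plus strand), the inhibitor that binds mTOR directly, had 7 GR peaks and 25 H3K27ac peaks in its region. As many GR peaks were found at 11.5% of genes and as many H3K27ac peaks at 1.79%. By density in its region of 197 kb, 3.55 GR peaks and 12.7 H3K27ac peaks per 100 kb, 23.9% and 8.86% of genes were as dense. The promoter had a GR peak of 670 bases and a Pol2 peak of 501 bases, with a CTCF peak 675 bases from the TSS. The GR peak lies also in Gm9920, a non-coding gene on the other strand. Away from H3K4me3 there were 20 H3K27ac peaks, all in the gene body and all on H3K4me1, and 3 of them overlapped GR, no larger a share than the 20.1% over all such peaks. The widest H3K4me1 peak of the 9 regions, 16855 bases, was in Deptor.

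Of the 5 intronic GR peaks of Deptor, 3 were of the enhancer class and 2 had H3K4me1 only. The enhancer-class peaks were 193, 376 and 197 bases wide and lay 8.82, 44.4 and 97.7 kb from the nearest Deptor TSS. The full GRE was in a peak of 154 bases, 0.827 kb from an internal TSS that had H3K27ac and H3K4me1 within 1 kb but no Pol2 and no H3K4me3. Both distal peaks beyond 90 kb were nearer to the TSS of Col14a1, a collagen gene, than to any of Deptor, though still 83428 and 76380 bases away. The seventh peak lay at the promoter of Taf2.

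Eif4ebp1 (ENSMUSG00000031490, chr8:27260329-27276674, plus strand), the repressor of cap-dependent translation, had 3 GR peaks, of 333, 178 and 668 bases. All lay at the promoter, the last beginning 679 bases into the gene. Joined across gaps under 500 bases they made 1 site. A Pol2 peak of 1530 bases and an H3K27ac peak of 2809 bases spanned nearly the same stretch, and 1.04% and 0.933% of their lists were as wide. H3K4me1 covered 84.4% of the gene body with a peak of 14784 bases. The 668-base peak held 2 copies of the C/EBP-ATF element, printed above, and no GRE core.

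Around Eif4ebp1, the neighbours Got1l1 and Adrb3, the beta-3 adrenergic receptor, had no GR, Pol2, H3K4me3 or H3K27ac peak at a TSS. The 3 GR peaks in the region had Eif4ebp1 as their nearest gene. Past the 3′ end of the gene, 4 Pol2 peaks of 99 to 322 bases lay 14.5 to 15.8 kb from the nearest Eif4ebp1 TSS, without GR. The 4 H3K27ac peaks outside H3K4me3 were in the gene body near an internal TSS, and none overlapped GR.

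Rptor (ENSMUSG00000025583, chr11:119602905-119899576, plus strand), which encodes Raptor, is the longest of the 9 genes, at 297 kb. It had 5 GR peaks, 1.41 per 100 kb, a density that 49.7% of genes reached. The promoter peak was 243 bases wide, beside a Pol2 peak of 120 bases, the only Pol2 peak in the region. The other 4 were intronic, between 144 and 232 bases wide. Among them the peaks of 232 and 198 bases, 8.07 and 5.42 kb from internal TSS, were of the enhancer class, and the peaks of 144 and 183 bases had H3K4me1 only. H3K4me1 peaks numbered 33, as many as at 0.624% of genes, but in a region of 355 kb this was 9.31 per 100 kb, which 21.5% of genes reached. Of the 33, 5 overlapped GR, against 14.8% of all H3K4me1 peaks. The region held no CTCF peak, and none of the 5 GR peaks held a GRE core.

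Mtor (ENSMUSG00000028991, chr4:148448611-148557683, plus strand), the kinase gene, had 12 GR peaks, as Ddit4 did, but only 3 of them had Mtor as their nearest gene. At its promoter lay GR peaks of 137 and 234 bases, each with Pol2, H3K4me3, H3K27ac and H3K4me1. The 234-base peak overlapped the H3K4me3 peak with an authors' fold of 49.3. The 137-base peak overlapped a separate H3K4me3 peak of 322 bases with a fold of 9.11. In the same region, Exosc10 had 1 promoter peak and Srm, the spermidine synthase gene, had 2.

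The introns of Mtor held a cluster of 4 GR peaks, of 253, 235, 123 and 232 bases, at chr4:148507538-148513211. They lay 59.1 to 64.5 kb into the gene. The first 3 were inside an H3K4me1 peak of 8959 bases and the fourth lay just past its end, without a mark. None of the 4 overlapped H3K27ac, H3K4me3 or Pol2, and 3 of the 4 held a full GRE, printed above. An H3K27ac peak of 163 bases lay between the first and the second. The nearest protein-coding TSS, 7078 to 12520 bases away, is that of Angptl7, a secreted angiopoietin-like protein encoded inside Mtor on the opposite strand. The Angptl7 TSS had Pol2 (205 bases), H3K27ac and H3K4me1 but no GR and no H3K4me3. Another intronic peak of Mtor, of 148 bases, had no mark and no GRE core.

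**Figure D5:**
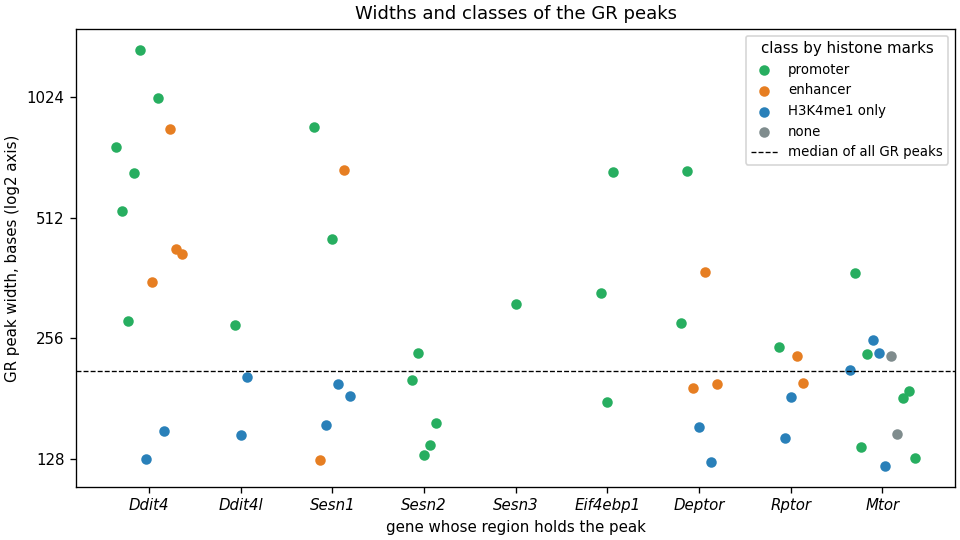
Width in bases (vertical log2 axis) of each of the 55 GR peaks by gene (horizontal axis), coloured by the class given by histone marks. The widest peaks are those of Ddit4, 1346 and 1023 bases, and the 12 peaks of Mtor reach 373 bases at most.

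Ddit4 and Mtor thus had 12 GR peaks each with different marks and widths. At Ddit4 the widths ran from 128 to 1346 bases with a median of 481, and 8 of 12 overlapped Pol2. At Mtor they ran from 123 to 373 with a median of 201, and 6 of 12 overlapped Pol2, all at promoters. Enhancer-class peaks numbered 4 at Ddit4 and 0 at Mtor. The median over all 23188 GR peaks was 212 bases and over the 55 peaks 232.

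Motifs were counted in windows of 300 bases at the middle of each GR peak, on both strands. The GRE core ACANNNTGT was in 9 of 55 windows, 16.4% (7.77 to 28.8), against 13.6% of all GR peaks. The full GRE, which contains the core, was in 6, or 10.9% (4.11 to 22.2), against 5.88%. The match 22.3 kb upstream of Ddit4 lay outside the middle 300 bases of its wide peak and is not among these 6. Included in the 6 is a match not printed above, in a 213-base peak 13.7 kb upstream of Mtor with H3K4me1 only. By class, the full GRE was in 0 of 27 promoter-class windows, 1 of 11 of the enhancer class, 4 of 15 with H3K4me1 only and 1 of 2 without marks. Over all GR peaks these shares were 0.916%, 8.22%, 11.7% and 20.3%, so the members' matches fell in the classes where matches were common over the genome.

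The FoxO element GTAAACA was in 6 of 55 windows, 10.9% (4.11 to 22.2), against 3.74% of all GR peaks. Matches inside the peaks themselves, whatever their width, were in 5 of 55, 3 at Ddit4 and 2 at Sesn1, against 2.96% of all. The C/EBP-ATF element was in 3 windows, 5.45%, against 2.79%, and in 6 whole peaks, 10.9% (4.11 to 22.2), against 504 of all 23188. The E-box CAGCTG, bound by myogenic factors, was in 23.6% against 24.3%, and the GC box GGGCGG in 40% against 41.7%. The MEF2 core TAAAAATA was in 1 window, 1.82% against 2.9%, and neither the NF1 motif, TTGGC and GCCAA with 5 bases between them, nor the C/EBP motif TTGCGCAA was in any (0 of 55, up to 6.49%), against 0.0388% and 0.267% of all GR peaks. The CTCF motif, CCNNN followed at once by AGGNGGC, was in 2 of the 7 CTCF windows, against 30.4% of 6526 CTCF peaks. These are matches of letters, and no test was made.

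Beyond the 9 genes, 73 other genes of the pathway were listed by function. GR was at a TSS of 65 (43.4% of all genes), Pol2 of 69 (47.1%), H3K4me3 of 72 (61.5%) and H3K27ac of 69 (52.4%). H3K4me1 was there at 68 (65.8%) and CTCF at 11 (7.54%). All of GR, Pol2, H3K4me3 and H3K27ac were at a TSS of 64 (40.0% of all genes). Most of the 73 had H3K4me3 and Pol2 at a TSS, and among all such genes 86% had GR there. The median was 4 GR peaks per region and 3.57 per 100 kb, close to the 5 and 3.55 of the 9 genes.

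By subgroup, GR was at a TSS of 7 of 8 mTOR complex subunits, 4 of 5 genes of the TSC complex and Rheb, 10 of 12 Rag and Ragulator genes and 12 of 14 GATOR, KICSTOR and sensor genes. It was at a TSS of 8 of 8 AMPK genes, 14 of 15 genes of S6 kinase and cap-dependent translation, and 10 of 11 of the eIF2 stress response. The share was 43.4% over all genes and 86% over genes with H3K4me3 and Pol2 at a TSS. The most GR peaks per subgroup, in that order, were 13 at Akt1s1, 8 at Rhebl1, 8 at Lamtor2, 9 at Nprl2, 18 at Stk11, 15 at Eef2 and 8 at Ppp1r15a. Stk11 encodes the kinase LKB1 that activates AMPK, and Eef2 the elongation factor eEF2. Both exceeded the count of 12 at Ddit4, as did Akt1s1 and the AMPK subunit gene Prkag2 with 13 each. Per 100 kb, Stk11 had 16.2 GR peaks, Eef2 14.4 and Akt1s1 12.6, against 12 at Ddit4. Prkag2, in a longer region, had 3.95. The GR regions of gene-dense loci include the promoters of neighbours.

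A few pathway genes lacked a mark at every TSS. Prr5l, a subunit of mTOR complex 2, and Rragb, a Rag GTPase, had H3K4me3 there but no GR, Pol2 or H3K27ac, and no GR peak in their regions. Eif4ebp3, a paralog of Eif4ebp1, had none of the 4 at a TSS. Trib3, a pseudokinase of the stress response, had no GR and no Pol2, and Eif2ak2, the kinase PKR, no H3K27ac. Eif4ebp2, the other paralog, had 10 GR peaks in its region against 3 at Eif4ebp1, and had GR, Pol2, H3K4me3 and H3K27ac at a TSS.

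Genes with the most similar peak counts were sought by the distance between percentile ranks in the 6 lists, leaving out genes whose regions overlapped. Nearest to Ddit4 were Wasf2 (6.4 percentile points), Kmt2e and Pvalb, the last a calcium buffer of fast muscle fibres. Nearest to Ddit4l were Klhl7 (9.74), Sav1 and Xrcc2. Sesn1 lay nearest to Kif24 (2.37), Taok3 and Hip1, and Sesn2 to Mov10 (6.74), Pusl1 and Cnp. Sesn3 was nearest to Prss21 and Trpm6 (5.4 each) and Fas. Eif4ebp1 had the most distant nearest genes of the 9, Pcid2 (17.8), D730001G18Rik and Gm20721. Deptor was nearest to Fhod3 (5.19), a sarcomeric formin, and Itgb5, Rptor to Maml2 (2.37), Mrvi1 and Nck2, and Mtor to Gm21992 (4.97), Nol9 and Gm20696. Among the 9 genes themselves the closest were Ddit4 and Mtor, at 12.2, and the farthest Ddit4 and Sesn3, at 119. Ranks over 6 counts from single libraries are a description only.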

How the data were processed

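Chromatin immunoprecipitation with sequencing was done on 8 libraries, 6 antibodies with 1 library each and 2 inputs, prepared with 7 cycles of PCR on 10 ng of DNA each, as the labels' protocols state. MACS2 (no version), Bowtie 1.0.0, bcl2fastq 2.17.1.14 and build mm10 appear in the submitters' processing notes. Not given in the sources used here were thresholds and library sizes, so depth is unknown. All 6 deposited lists give peak start and end positions, 1 list per library. For CTCF and H3K4me3 the authors also deposited a score, a linear fold (ratio) over the control, and −log10 p-values and −log10 q-values. Multiplying the −log10 q-value by 10 and truncating gave the deposited score. Without such values, width ranked the other 4 lists.

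Mitochondrial peaks were left out. Genes and TSS came from GENCODE on GRCm38, sequence from RefSeq on the same build. At least 1 shared base counted as overlap. Shares carry exact Clopper-Pearson 95% intervals for counting error only, and PCR copies without identifiers may repeat a molecule. The genes, lists and rules were chosen with earlier results of these data known, and the comparison with genes that have H3K4me3 and Pol2 at a TSS was added after the counts were seen. The text names the 9 genes, in each pathway subgroup the gene with the most GR peaks and any gene lacking Pol2, H3K4me3 or H3K27ac at a TSS, the 3 genes nearest to each in peak counts, and the genes nearest to described peaks. Some genes that this rule would name are not reported here. Eif4ebp2 and Prkag2 were named after their values were seen. Alternatives were other reaches, overlaps, annotations, motif windows and stricter lists. Python 3.11.15, numpy 2.4.6, scipy 1.17.1, pandas 2.3.3 and pysam 0.24.0 were used, and overlap, distance and motif functions were tested on simulated data.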

Additional observations from a re-analysis of the deposited data

How the results depend on the processing

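Of 63 alternatives to the counts and shares over the 9 genes and the pathway list, 55 stayed within 1.5 times the count, or inside the interval of the share, and no direction was at stake. GR peaks in the 9 regions fell from 55 to 36 when only peaks nearest to a TSS of the gene were kept, with Mtor going from 12 to 3 and Ddit4 from 12 to 8. With the widest 50% of the GR list they fell to 29, of which Ddit4 kept 10 and Mtor 6. Genes with CTCF at a TSS went from 2 to 1 within 500 bases and to 0 in the strictest 50% of the CTCF list. CTCF peaks in the regions went from 7 to 0 in that list and to 12 with 100 kb around a TSS. With marks within 1 kb counted as shared, the enhancer class rose from 20% to 34.5% and H3K4me1 only fell from 27.3% to 12.7%, since small gaps between peaks then no longer separate classes. For single genes, 41 of 54 alternatives stayed within 1.5 times the count. No paired analysis was possible because each antibody has 1 library. Depth is unknown, so an absent peak is a peak not called, not a site without binding.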
